A study of Homo sapiens with 9 samples.

Results

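Integrins are cell surface receptors made of an α and a β subunit, and 10 subunit genes were followed here: ITGAV, ITGA2, ITGA3, ITGA4, ITGA5, ITGA6, ITGB1, ITGB3, ITGB5 and ITGB8. They were taken by gene symbol from a table of 60606 genes, and all 10 were found and passed the filter on low values, a mean above 1 TPM over the 9 libraries. TPM divides out gene length and library total, so levels of different genes can be compared. RNA was sequenced from 3 lines with 3 libraries each. U87 is an established human glioblastoma line grown in serum. GSCs are radioresistant stem cells raised from U87, irradiated repeatedly and grown without serum in the presence of EGF and bFGF. Diff cells are progeny that these GSCs gave after differentiation in serum and were picked from clonal colonies, so that the irradiated history is shared by GSCs and Diff cells, and the serum by U87 and Diff cells. Medium, clonal selection and irradiation cannot be told apart in these lines, and beyond a general statement that the study used biological replicates, no source used here says that the 3 libraries of a line came from separate cultures, so the p-values measure the spread between libraries, which may be technical.

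The α subunit largely sets which matrix protein an integrin binds, while the β tail recruits talin and kindlin and through them the actin skeleton. The subunit αv pairs with β1, β3, β5, β6 and β8 and recognises the RGD motif of vitronectin, fibronectin, osteopontin and latent TGF-β; β1 pairs with many α subunits, among them the laminin receptors α3 and α6, the collagen receptor α2 and the fibronectin receptors α4 and α5. In glioblastoma the αv integrins have been studied as drug targets. The liposomes of this study carried iRGD, a cyclic peptide that binds αvβ3 and αvβ5 and then NRP1, so the RNA level of these partners in each line is of direct interest.

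The cells were checked against their labels. Of 8 markers of glioma and mesenchymal cells, VIM and CD44 were high in every library, at no less than 582 and 285 TPM, while the glial genes GFAP (0.66 to 2.57 TPM), S100B (0 to 1.06 TPM) and OLIG2 (4.7 to 10.6 TPM) were low. That list summed to 3501 to 3745 TPM in U87, 2489 to 2830 TPM in GSCs and 1803 to 1879 TPM in Diff cells. Of 4 neural stem cell markers, 3 were highest in GSCs: FABP7 (4.38 to 5.82 TPM, against 0.546 to 0.986 TPM in U87 and 2.53 to 3.27 TPM in Diff cells), and, under 1 TPM in all 9 libraries, SOX2 (0.809 to 0.994 TPM, against at most 0.115 TPM in U87) and PROM1 (0.379 to 0.596 TPM, against at most 0.238 TPM in U87). NES was highest in U87, at 31.1 to 35.5 TPM against 21.7 to 23.3 TPM in GSCs and 12.7 to 14.6 TPM in Diff cells. Of 8 leukocyte markers, 5 lay under 1 TPM everywhere and the list summed to 2.69 to 3.79 TPM in U87, 3.76 to 5.24 TPM in GSCs and 4.82 to 6.12 TPM in Diff cells. Of 4 platelet markers none reached 1 TPM. The 5 endothelial markers summed to 5.07 to 8.12 TPM in U87, 17.9 to 20.5 TPM in GSCs, with VWF at 11 to 12 TPM, and 5.47 to 6.81 TPM in Diff cells, while CDH5 stayed under 1 TPM. The 5 epithelial markers summed to 1.78 to 2.9 TPM in U87, 4.38 to 5.47 TPM in GSCs and 2.72 to 15 TPM in Diff cells, the highest sum coming from KRT5 (5.54 TPM) and KRT14 (6.03 TPM) in Diff replicate 1. The leukocyte, platelet and epithelial lists themselves hold integrin genes and are no independent check of them: ITGB4 gave 3.1 to 4.3 TPM of the epithelial sum in GSCs, and ITGB2 1.79 to 2.56 TPM of the leukocyte sum in Diff cells. The part of these markers in the results was not tested, and without Diff replicate 1, 10 of the 10 integrin genes passed in GSCs against U87, 7 in Diff cells against U87 and 8 between Diff cells and GSCs.

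Log2 fold changes were taken on TPM + 1 and tested with limma in 1 fit of the 9 libraries. A gene is said to have passed at a Benjamini-Hochberg adjusted p under 0.05 over the 22909 genes tested, and to have been called when its log2 fold change was also beyond 1 in size. In bulk RNA, fewer cells carrying a transcript and less of it per cell cannot be told apart.

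The broad outcome was a change of subunits. In GSCs against U87, ITGB3, ITGB5, ITGB8 and ITGA3 were higher and ITGAV, ITGA2, ITGA4, ITGA5, ITGA6 and ITGB1 lower, and the libraries of both lines did not overlap for any of the 10. In Diff cells against U87, ITGB3, ITGB5 and ITGB8 were higher and ITGB1, ITGA2, ITGA5 and ITGA6 lower, and ITGAV, ITGA3 and ITGA4 did not pass. In Diff cells against GSCs, ITGAV, ITGA4, ITGA5 and ITGB5 were higher and the other 6 lower.

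These counts were read against all tested genes. Since the 10 genes were chosen with earlier results of these data known, an excess over all genes is a description and no test. For GSCs against U87, 4 genes passed as higher and 6 as lower, where 25.3% and 23.3% of all genes did so. Called were 3 higher and 5 lower, against 9.52% and 7.53% of all genes; 2 of these calls lay near the threshold of 1, and ITGB5 came to 0.985 without GSCs replicate 2 and ITGA5 to -0.983 without GSCs replicate 3. All 10 had libraries that did not overlap, as did 55.8% of all genes. For Diff cells against U87, 3 passed as higher and 4 as lower (18.9% and 20.5% of all genes), 3 were called on each side (5.92% and 6.36%), and 9 had libraries that did not overlap (55.2%). For Diff cells against GSCs, 4 passed as higher and 6 as lower (15% and 19.8%), but only ITGAV and ITGA4 were called higher and only ITGB8 lower (2.66% and 5.36%), and all 10 did not overlap (46.7%). The median log2 fold change of the 10 genes was -0.88, 0.07 and -0.34 in these 3 comparisons, and that of all tested genes 0.02, -0.04 and -0.06. The first 2 comparisons share the U87 libraries.

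**Figure D1:**
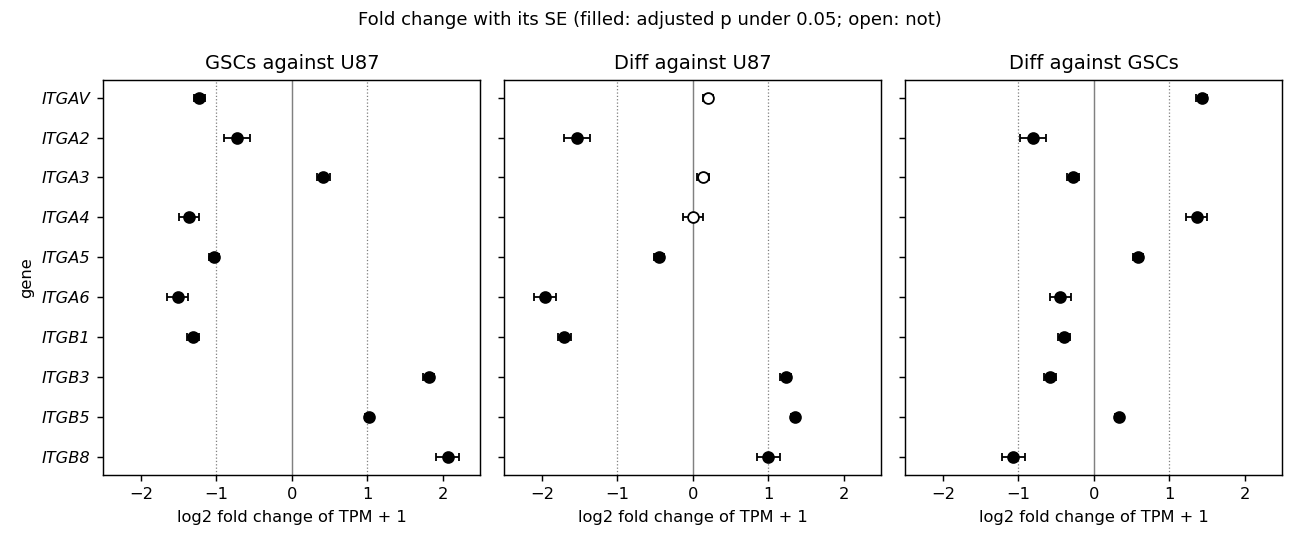
Log2 fold change of TPM + 1 for the 10 genes in the 3 comparisons, with the limma SE as a bar, filled circles for an adjusted p under 0.05 and open circles otherwise, and dotted lines at a log2 fold change of 1 in either direction. The open circles are ITGAV, ITGA3 and ITGA4 in Diff cells against U87.

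ITGAV, the αv subunit (chr2:186590065-186680901, plus strand; GRCh38, GENCODE 29), is the α chain of both iRGD receptors. It stood at 22.9, 21.6 and 21.8 TPM in the U87 libraries, at 8.52, 8.51 and 9.6 TPM in GSCs and at 26.8, 24.3 and 25.6 TPM in Diff cells. GSCs were thus low in every library, and the Diff libraries lay just above those of U87. Relative to U87, GSCs changed by -1.23 on the log2 scale (SE 0.0722), and Diff cells exceeded GSCs by 1.43; the difference of 0.20 between Diff cells and U87 missed the threshold (limma adjusted p = 0.0549). Of 18 alternative settings, 6 brought this last difference past the threshold, with adjusted p between 0.00626 and 0.171 over all of them.

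ITGA4, the α4 subunit (chr2:181457202-181536187, plus strand), binds VCAM1 and fibronectin and lies on the same arm of chromosome 2. Its level was 2.49, 2.41 and 2.39 TPM in U87, 0.286, 0.356 and 0.359 TPM in GSCs and 2.23, 2.82 and 2.25 TPM in Diff cells. The GSC libraries were low, as for ITGAV, but here the other two lines overlapped. Against U87 the GSCs had a log2 fold change of -1.36, and Diff cells differed from GSCs by 1.36; because 1 is added to each TPM this understates the change, and with 0.1 in its place it was -2.55 and 2.54. The GSC level rests on about 16 to 22 fragments per library. Between Diff cells and U87 no direction could be given (-0.002, SE 0.133, limma adjusted p = 0.993).

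ITGAV and ITGA4 had a Pearson r of 0.979 over the 9 libraries, a description only, since the libraries fall into 3 lines. The bases before their starts are shown because both genes were low in the same line. Those of ITGB8 are shown because it differed most between lines on the scale of TPM + 1. They are RefSeq sequences of GRCh38.p14, plus strand, cut before the first start that RefSeq or GENCODE annotates, at chr2:186589806-186590055 for ITGAV, chr2:181457136-181457201 for ITGA4 and chr7:20330650-20330701 for ITGB8. Capitals mark the GC box GGGCGG on either strand.
ITGAV: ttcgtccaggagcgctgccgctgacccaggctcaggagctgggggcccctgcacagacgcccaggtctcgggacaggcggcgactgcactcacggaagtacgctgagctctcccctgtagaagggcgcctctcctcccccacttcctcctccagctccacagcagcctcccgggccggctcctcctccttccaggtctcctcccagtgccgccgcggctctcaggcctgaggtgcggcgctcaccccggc
ITGA4: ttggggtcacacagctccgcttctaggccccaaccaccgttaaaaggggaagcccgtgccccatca
ITGB8: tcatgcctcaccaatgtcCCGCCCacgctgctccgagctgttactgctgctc

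The GC box was searched in the full 250 bases before 1 RefSeq start per gene. ITGAV, ITGB1 and ITGA6 have 2 such windows each and ITGB5 has 3, and only the window nearest the GENCODE start was searched. The box was found 2 times for ITGB8, 4 times for ITGA2, 3 times for ITGB1, 2 times for ITGB5 and 1 time for ITGA5. It was not found for ITGAV, ITGA4 or ITGA6, and 42.6% of 35116 such windows hold it. The AP-1 letters TGANTCA, searched on both strands, were found in none of these 8 genes and in 6.57% of windows, and TATAAA only in that of ITGA6 (10.7% of windows). ITGB3 and ITGA3 had no entry in this set. A match is a match of letters and was not tied to any expression value.

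Among the β partners of αv, ITGB3 (chr17:47253846-47311816, plus strand) encodes β3, the chain of the vitronectin receptor αvβ3. It was 69, 69.6 and 65.8 TPM in U87, 248, 221 and 258 TPM in GSCs and 176, 160 and 149 TPM in Diff cells. The 3 lines were fully separated, with GSCs on top. The log2 fold change was 1.81 in GSCs against U87, 1.23 in Diff cells against U87 (SE 0.0762, limma adjusted p = 4.15e-06) and -0.58 in Diff cells against GSCs. In GENCODE 29, 51.6% of its exon bases are shared with AC068234.1 on the same strand, a gene listed at 0 in all 3 lines, so its level is uncertain to the extent that reads were split or dropped there.

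ITGB5 (chr3:124761948-124901418, minus strand) encodes β5, the other chain that iRGD recognises with αv. It was 47.1, 47.2 and 45.4 TPM in U87, 90.6, 100 and 95.7 TPM in GSCs and 116, 125 and 121 TPM in Diff cells. Unlike ITGB3 it was highest in Diff cells, and again no library of a line reached into another line. Log2 fold changes were 1.02 in GSCs against U87, 1.36 in Diff cells against U87, and Diff cells differed from GSCs by 0.34.

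ITGB8 (chr7:20330702-20415754, plus strand) encodes β8, which with αv holds latent TGF-β. Its libraries gave 3.4, 3.14 and 2.77 TPM in U87, 14.4, 14.1 and 20.8 TPM in GSCs and 7.7, 6.5 and 7.44 TPM in Diff cells. The order was that of ITGB3, and GSCs replicate 3 stood above the other two. On the scale of TPM + 1 it had the largest difference of the 10 genes between its highest and lowest line. This was a log2 fold change of 2.07 in GSCs against U87 (SE 0.153), or 1.90 without GSCs replicate 3. With 0.1 added in place of 1, ITGB8 came to 2.35 there. ITGA6 in Diff cells (-2.707) and ITGA4 in GSCs (-2.548) then differed more from U87. The Diff level of ITGB8 lay between, at 1.00 against U87 and -1.07 against GSCs. The value of 1.00 sits on the threshold of 1, so this call by size changed when some libraries were left out (5 in place of 6 called genes without Diff replicate 1, Diff replicate 3 or U87 replicate 3), and that of -1.07 became -0.90 without GSCs replicate 3. Under quantile normalization the call against GSCs was lost too, with 2 in place of 3 called genes.

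ITGB8 had its highest Pearson r over the 9 libraries with C6orf89 (0.9986), USP42 (0.9974), RETREG1 (0.9963) and VAV3 (0.9960), out of 9854 protein-coding genes with a mean TPM over 5. With 9 points in 3 lines, such values describe the order of the lines. VAV3, a guanine nucleotide exchange factor, for instance had a mean of 7.28 TPM in U87, 22.9 TPM in GSCs and 12.1 TPM in Diff cells.

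ITGB1 (chr10:32900319-33005792, minus strand) encodes β1, the most widely shared partner. It was 149, 136 and 147 TPM in U87, 57.5, 52.8 and 62.5 TPM in GSCs and 48, 39.9 and 43 TPM in Diff cells. All libraries of both derived lines lay well below those of U87. The log2 fold change was -1.31 in GSCs against U87, -1.70 in Diff cells against U87 (SE 0.0848, limma adjusted p = 1.22e-06) and -0.39 in Diff cells against GSCs, the same direction throughout. Its antisense neighbour ITGB1-DT shares 0.699% of the exon bases.

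The laminin receptors differed from each other. ITGA3 (chr17:50055968-50090481, plus strand), the α3 subunit, had 1358, 1318 and 1235 TPM in U87, 1745, 1942 and 1560 TPM in GSCs and 1456, 1416 and 1430 TPM in Diff cells. It was by far the highest of the 10 in each library and varied least, with a log2 fold change of 0.42 in GSCs against U87 (limma adjusted p = 0.00273). It passed there but was not called, and the pass was lost under quantile normalization (0.18, limma adjusted p = 0.0885). The pass at -0.28 in Diff cells against GSCs was lost under 10 of 18 settings and had no direction under quantile normalization (0.008). In Diff cells against U87 it was 0.14 and did not pass (adjusted p = 0.222).

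ITGA6 (chr2:172427354-172506282, plus strand), the α6 subunit, a marker used for glioma stem cells, was 6.37, 6.78 and 6.29 TPM in U87, 1.57, 1.7 and 1.6 TPM in GSCs and 1.06, 0.614 and 1.14 TPM in Diff cells. It was highest in U87, not in GSCs, with a log2 fold change of -1.51 in GSCs and -1.96 in Diff cells, both against U87. Because 1 is added to each TPM, these values understate the change, and with 0.1 in its place ITGA6 gave -1.935 and -2.707. In Diff cells it rests on about 29 to 60 fragments per library, and its difference from GSCs (-0.45, limma adjusted p = 0.0376) was lost under 12 of 17 settings.

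ITGA2 (chr5:52989326-53094779, plus strand), the α2 subunit of a collagen receptor, was 97.2, 82 and 105 TPM in U87, 50.5, 47.5 and 75.1 TPM in GSCs and 35.7, 30.4 and 29.7 TPM in Diff cells. As with ITGB8, the GSC library that stood above the rest was replicate 3, but it remained under every U87 library. On the log2 scale it changed by -0.73 in GSCs against U87, -1.53 in Diff cells against U87, and Diff cells differed from GSCs by -0.81.

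ITGA5 (chr12:54395261-54419460, minus strand), the α5 subunit of the main fibronectin receptor, was the second highest of the 10 genes in each line. It measured 669, 666 and 594 TPM in U87, 328, 321 and 292 TPM in GSCs and 467, 468 and 479 TPM in Diff cells. This gave a log2 fold change of -1.03 in GSCs against U87, -0.45 in Diff cells against U87, and Diff cells differed from GSCs by 0.59, so Diff cells stood between the other two lines.

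The order of the mean levels differed between lines. In U87 it ran ITGA3, ITGA5, ITGB1, ITGA2, ITGB3, ITGB5, ITGAV, ITGA6, ITGB8, ITGA4, and in Diff cells ITGA3, ITGA5, ITGB3, ITGB5, ITGB1, ITGA2, ITGAV, ITGB8, ITGA4, ITGA6. In both lines no 2 neighbours in the order overlapped between libraries. In GSCs the order was ITGA3, ITGA5, ITGB3, ITGB5, ITGA2, ITGB1, ITGB8, ITGAV, ITGA6, ITGA4, and only ITGA2 (57.7 ± 15.1 TPM, SD, n = 3) and ITGB1 (57.6 ± 4.87 TPM, SD, n = 3) overlapped. ITGB3 thus ranked above ITGB1 in both derived lines and below it in U87. Reads split or dropped over the exons that ITGB3 shares with AC068234.1 would lower its level, so its rank in U87 is uncertain.

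The 5 β genes that pair with αv were then set against each other within each library, where scaling between libraries has no part. ITGB1 made up 55% ± 1.62 (SD, n = 3) of their summed TPM in U87, 14% ± 0.348 (SD, n = 3) in GSCs and 13.1% ± 0.928 (SD, n = 3) in Diff cells. ITGB3 made up 26% ± 1.01 (SD, n = 3), 58.8% ± 1.72 (SD, n = 3) and 48.4% ± 1.99 (SD, n = 3). The leading β gene was therefore ITGB1 in the U87 libraries and ITGB3 in all 6 others. The shares and the leading gene in U87 carry the uncertainty of the ITGB3 level given above.

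ITGB5 took 17.8% ± 0.563 (SD, n = 3) in U87, 23.2% ± 2.2 (SD, n = 3) in GSCs and 36.3% ± 2.49 (SD, n = 3) in Diff cells, and ITGB8 1.18% ± 0.108 (SD, n = 3), 3.97% ± 0.692 (SD, n = 3) and 2.16% ± 0.184 (SD, n = 3). Each share was separated between lines except that of ITGB1 between GSCs and Diff cells (two-sided exact permutation test, p = 0.2; p = 0.1 for the others, which with 3 libraries on either side is the lowest possible value, or 0.115 after adjustment over 15 tests), so the test could not pass 0.05. The higher ITGB3 share of Diff cells than of U87, by 22.3 percentage points, was tied to ITGB1: with ITGB1 left out of the sum it was 2.16 points lower (-2.16, exact permutation p = 0.4), whereas GSCs kept a higher share than U87 by 10.5 points.

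ITGAV RNA was lowest in GSCs, where the summed RNA of its β partners was highest. The summed TPM of the β genes was 262 ± 6.46 (SD, n = 3) in U87, 412 ± 24.8 (SD, n = 3) in GSCs and 333 ± 13.4 (SD, n = 3) in Diff cells, and its ratio to ITGAV was 11.9 ± 0.102 (SD, n = 3), 46.5 ± 1.49 (SD, n = 3) and 13.1 ± 0.566 (SD, n = 3). ITGB3 alone exceeded ITGAV 3.09 ± 0.121 times (SD, n = 3) in U87, 27.3 ± 1.6 times (SD, n = 3) in GSCs and 6.32 ± 0.417 times (SD, n = 3) in Diff cells. These ratios were added after the levels had been seen and are given as descriptions. They too carry the uncertainty of the ITGB3 level.

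A like ratio was formed for β1. The 12 α genes whose products pair with β1 summed to 2113 ± 96.5 TPM (SD, n = 3) in U87, 2209 ± 190 TPM (SD, n = 3) in GSCs and 2004 ± 24.8 TPM (SD, n = 3) in Diff cells, of which ITGA3 made up 61.7%, 79.1% and 71.6%. Over ITGB1 this came to 14.7 ± 0.981 (SD, n = 3) in U87, 38.7 ± 6.58 (SD, n = 3) in GSCs and 46.2 ± 3.71 (SD, n = 3) in Diff cells. Both derived lines lay above U87 in every library (exact permutation p = 0.1, adjusted p = 0.115), while GSCs and Diff cells overlapped (exact permutation p = 0.2). RNA ratios say nothing of how much of each chain is on the surface.

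Position on the chromosome was examined through the 24 nearest tested protein-coding genes, 12 on each side. For ITGB1, on the short arm of chromosome 10, the neighbours were low too: their median log2 fold change was -0.64 for GSCs and -0.79 for Diff cells relative to U87, with 20 of 24 below 0 each time. ITGB1 lay under 21 and 23 of them. For ITGB8 on chromosome 7 the medians were 0.38 and 0.36, with 18 of 24 above 0, and ITGB8 exceeded 22 and 16 of its neighbours.

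The neighbours of ITGA2 on chromosome 5 had medians of -0.42 and -0.22. For the other 7 genes these medians lay between -0.25 (ITGA6) and 0.11 in both comparisons with U87. ITGB3 and ITGB5, for example, were above 22 of 24 neighbours in each but for ITGB5 in Diff cells against U87, where it was above 23. In Diff cells against GSCs, ITGAV stood above all 24 neighbours and ITGA4 above 23. These sets overlap, since each gene is among the neighbours of the other, and the gene above ITGA4 was ITGAV. Whether shifts of the neighbours bear on the integrin values was not tested.

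Of the 16 other integrin subunit genes, 8 were tested. 5 passed as higher and 1 as lower in GSCs relative to U87 (25.3% and 23.3% of all genes). In Diff cells the numbers were 2 and 1 relative to U87 (18.9% and 20.5%), and 0 and 5 relative to GSCs (15% and 19.8%). The counts here and for the lists below are descriptions, and no list was tested as a set. ITGAX, the αX subunit known from myeloid cells, was 28.4, 29 and 21 TPM in U87, 563, 559 and 454 TPM in GSCs and 139, 140 and 140 TPM in Diff cells. Its level in GSCs was therefore above that of every one of the 10 genes but ITGA3. It had a log2 fold change of 4.28 in GSCs against U87 (SE 0.126) and 2.39 in Diff cells against U87, and its 24 neighbours on chromosome 16 had medians of 0.11 and 0.15.

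ITGB2, the only known β partner of αX, was at 0.124, 0.0395 and 0.173 TPM in U87, 0.278, 0.215 and 0.205 TPM in GSCs and 2.05, 2.56 and 1.79 TPM in Diff cells, and was not tested because its mean was under 1 TPM. PTPRC, the pan-leukocyte marker, was at or under 0.137 TPM in every library.

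ITGA7, a laminin receptor chain, rose from 20.9 ± 2.17 TPM (SD, n = 3) in U87 to 40.1 ± 3.06 TPM (SD, n = 3) in GSCs (log2 fold change 0.91), and the collagen receptor chains ITGA10 and ITGA11 by 1.30 and 0.98 on the same scale. ITGB4, the partner of α6, was 0.748 ± 0.0866 TPM (SD, n = 3) in U87, 3.83 ± 0.636 TPM (SD, n = 3) in GSCs and 2.46, 1.7 and 1.33 TPM in Diff cells; the highest of these is the library with KRT5 and KRT14. ITGA1, another collagen receptor chain, fell from 5.63 ± 0.079 TPM (SD, n = 3) in U87 to 2.74 ± 0.443 TPM (SD, n = 3) in GSCs and 2.32 ± 0.384 TPM (SD, n = 3) in Diff cells. ITGAE (2.08 to 4.32 TPM) and ITGAD (1.08 to 2.86 TPM) did not pass in either comparison with U87.

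**Figure D2:**
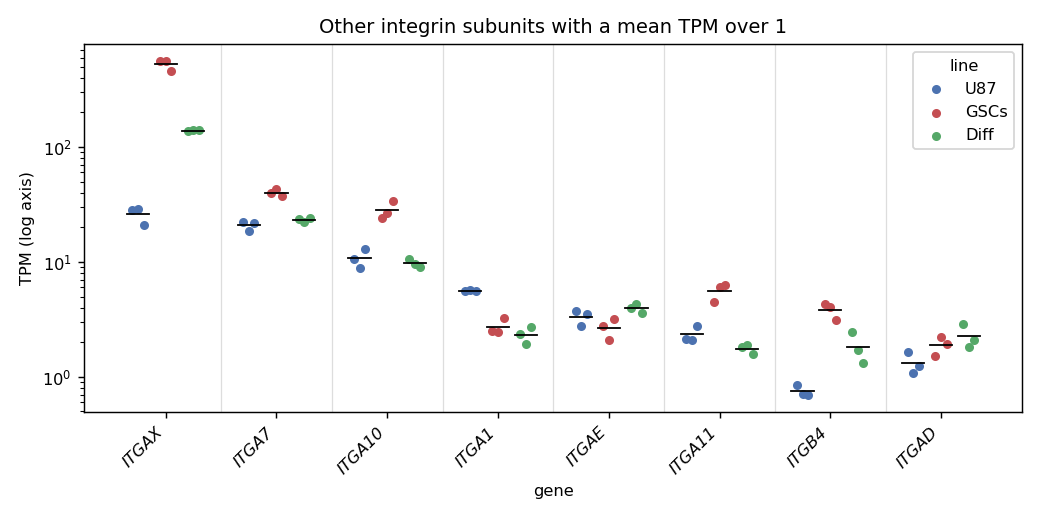
TPM on a log axis of the 8 other integrin subunit genes with a mean over 1 TPM, 1 point per library and a bar for the mean of a line. ITGAX spans from 21 TPM in U87 to 563 TPM in GSCs; ITGA1 is highest in U87.

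Among 15 tested ligands of the RGD and fibronectin type, 6 passed as higher and 7 as lower in GSCs against U87. In Diff cells against U87, 5 and 6 did so. The median log2 fold changes were -0.19 and -0.08. Of all genes, 25.3% and 23.3% passed in the former comparison and 18.9% and 20.5% in the latter. Higher in both were CCN3, a matricellular protein (log2 fold change 2.77 and 2.94), MFGE8, a bridge to αvβ3 and αvβ5 (1.26 and 1.55), SPP1, osteopontin (1.24 and 1.04), THBS2, a thrombospondin (0.61 and 1.31), and TGFB1 (0.62 and 0.39). Among those lower in both were FBN1, fibrillin-1 (-1.95 and -2.27), and TNC, tenascin-C (-1.15 and -1.46). SPP1 stood at 58.1 ± 3.35 TPM (SD, n = 3) in U87, 138 ± 13.5 TPM (SD, n = 3) in GSCs and 120 ± 2.05 TPM (SD, n = 3) in Diff cells. FN1 remained high, at no less than 865 TPM in any library, but was lower in both derived lines (-0.68 and -0.76). In Diff cells against GSCs, 4 were higher and 4 lower (all genes: 15% and 19.8%).

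Of 17 tested laminin and collagen genes, 6 passed as higher and 9 as lower in GSCs against U87 (all genes: 25.3% and 23.3%). In Diff cells against U87, 4 and 10 did so (all genes: 18.9% and 20.5%). The medians of these comparisons were -0.44 and -0.67. LAMA1, the α1 chain of laminin, was 2.58, 2.64 and 1.66 TPM in U87, 33.2, 35.5 and 33.6 TPM in GSCs and 32.3, 31 and 31.9 TPM in Diff cells. COL1A1, a ligand of α2β1, was 500, 452 and 540 TPM in U87, 27.6, 31.6 and 23.9 TPM in GSCs and 150, 160 and 160 TPM in Diff cells. COL5A1 had log2 fold changes of -3.32 and -2.87. LAMA5 fell in Diff cells relative to GSCs, at 1.15 ± 0.103 TPM (SD, n = 3) against 12.6 ± 2.01 TPM (SD, n = 3), a change of -2.65 on the log2 scale. In Diff cells against GSCs, 7 genes of this list were higher and 6 lower (all genes: 15% and 19.8%).

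Genes of activators and adaptors at the integrin tail changed in both directions. Of 26 tested activators and adaptors, 7 passed as higher and 9 as lower in GSCs relative to U87 (25.3% and 23.3% of all genes). In Diff cells the numbers were 9 and 7 relative to U87 (18.9% and 20.5%), and 8 and 3 relative to GSCs (15% and 19.8%). TLN1, the main talin, had a log2 fold change of -0.007 in GSCs and 0.05 in Diff cells against U87 and passed in neither (limma adjusted p = 0.95 and 0.669). TLN2 was higher in both, by 1.72 in GSCs and 2.48 in Diff cells. It stood at 5.26 ± 0.197 TPM (SD, n = 3) in U87, 19.6 ± 0.39 TPM (SD, n = 3) in GSCs and 33.9 ± 0.438 TPM (SD, n = 3) in Diff cells. TNS1, a tensin, changed by -3.82 in GSCs and -2.15 in Diff cells. APBB1IP, which brings RAP1 to talin, had values of -2.90 and -2.84 and lay under 1 TPM in both. KANK1, at the rim of focal adhesions, rose by 1.80 and 1.66.

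Of 33 tested genes of focal adhesion signaling, 6 passed as higher and 15 as lower in GSCs against U87 (all genes: 25.3% and 23.3%). In Diff cells the numbers were 5 and 13 relative to U87 (18.9% and 20.5%), and 14 and 5 relative to GSCs (15% and 19.8%). The kinase PTK2 (FAK) changed by 0.21 in GSCs and passed (limma adjusted p = 0.0394), and had a value of 0.055 in Diff cells, which did not pass. SORBS3, vinexin, had the largest value of the list, -2.27 in GSCs and -2.57 in Diff cells against U87. FYN, a kinase of the SRC family, changed by -1.16 and -0.92.

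Of 16 tested membrane partners of integrins, 4 passed as higher and 9 as lower in GSCs against U87 (all genes: 25.3% and 23.3%). In Diff cells the numbers were 6 and 10 relative to U87 (18.9% and 20.5%), and 6 and 5 relative to GSCs (15% and 19.8%). NRP1, the second receptor of iRGD, was 271, 266 and 266 TPM in U87, 68.8, 71.7 and 84.6 TPM in GSCs and 85.2, 79.2 and 77.5 TPM in Diff cells. GSCs (-1.83) and Diff cells (-1.72) were both lower than U87 on the log2 scale. NRP2, its paralog, went the other way, at 49.2, 51.4 and 44.3 TPM in U87, 225, 220 and 237 TPM in GSCs and 137, 130 and 127 TPM in Diff cells.

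Of the iRGD partners, then, ITGB3 and ITGB5 RNA was higher in both derived lines than in U87. ITGAV RNA was lower in GSCs, and NRP1 RNA was lower in both. By flow cytometry the paper found αvβ3 and NRP1 high on U87 and Diff cells, and it describes both as lower on Diff cells. For αvβ3 this is opposite in direction to ITGB3 RNA, and for NRP1 it is the same direction as NRP1 RNA. The RNA levels therefore cannot be taken to stand for the receptors on the surface. SLC7A5, the light chain that pairs with the β1 partner CD98, had a log2 fold change of -4.83 in GSCs and -3.42 in Diff cells. CD9, a tetraspanin, was 25.9 ± 0.95 TPM (SD, n = 3) in U87, 109 ± 4.05 TPM (SD, n = 3) in GSCs and 43.8 ± 1.44 TPM (SD, n = 3) in Diff cells. TGM2, an integrin co-receptor for fibronectin, was raised by 1.85 in Diff cells against U87 and by 1.66 against GSCs, and its difference between GSCs and U87 did not pass (0.19, limma adjusted p = 0.0682).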

How the data were processed

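RNA-seq was made from 3 libraries each of U87, GSCs and Diff cells. The authors deposited 1 table of log2(TPM + 1) values for 60606 genes; the submitters' processing notes name FastQC 0.11.9, Trimmomatic 0.39, HISAT2 2.2.1, featureCounts 2.0.5, R 4.2.0 and GRCh38. The annotation and the strand setting are not given in the sources used here. The sample records describe removal of ribosomal RNA and directional libraries, while the published methods describe oligo(dT) beads. TPM of each library summed to 1000000, of which mitochondrial genes held 25.9% to 31.8% and RN7SL1 5.73% to 9.79%. Depth, estimated from the spacing of low values (84% to 84.8% whole within 0.1 of a fragment), was about 18.7 to 25.4 fragments per library in units of 1000000; since it is approximate, fragment numbers per gene are too, and no interval was drawn from them.

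The 22909 genes above a mean of 1 TPM entered limma 3.58.1 (R 4.3.3; eBayes with a trend, 1 fit of the 9 libraries, line as the only term) with Benjamini-Hochberg adjustment per comparison, after tests on simulated data. Shares and ratios within a library were compared with two-sided exact permutation tests (scipy 1.17.1), adjusted over 15 tests. No set test was run. Places are from GENCODE 29. The integrin genes and gene lists were chosen with earlier results of these data known. All 10 integrin genes are named. Of each list, up to 5 protein-coding genes with the largest change among those that passed qualified as named. FN1, TGFB1, TLN1 and PTK2 were chosen after their values were seen. So were SPP1, THBS2, TLN2, CD9 and TGM2 in comparisons outside that rule, the genes of untested level (ITGB2) and the ratios to ITGAV. Of the 5 genes most like ITGB8, 1 is not reported here. MFI2 of the membrane partners was not found in the table by that symbol. Alternatives covered the pseudocount, filters, trend, 3 scalings, the libraries in the fit, a replicate block and the omission of each library.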

Additional observations from a re-analysis of the deposited data

How the results depend on the processing

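Over 18 settings, 25 of 30 results for single genes kept their direction and their side of the threshold; the other 5 were ITGAV and ITGA4 in Diff cells against U87, ITGA3 in GSCs against U87, and ITGA3 and ITGA6 in Diff cells against GSCs. For ITGA4 in Diff cells against U87, which never passed, the sign turned under quantile normalization (0.079), median-ratio scaling (0.036) and TPM without mitochondrial genes and RN7SL1 (0.035), and with 1 library left out the value ran from -0.081 to 0.039, without Diff replicate 1 (0.039), Diff replicate 3 (0.036) or U87 replicate 1 (0.011) above 0. ITGA3 in Diff cells against GSCs turned under quantile normalization (0.008). The ITGB3 share of Diff cells against U87 turned to -2.16 percentage points with ITGB1 left out of the sum, since ITGB1 is the gene that the sum loses. Counting called genes in place of those that passed gave 3 in place of 10 in Diff cells against GSCs. No scaling moved the median of all genes by more than 0.1 on the log2 scale. With 1 library left out, 7 to 8 genes passed for Diff cells and 10 for GSCs relative to U87, and 8 to 9 between Diff cells and GSCs. Libraries of the same replicate number did not deviate together over all tested genes (r from -0.042 to 0.049 over 9 pairs). A pairing that touches few genes would not show in such values. With a replicate block 7, 10 and 9 genes passed, ITGA6 in Diff cells against GSCs being lost. ITGA4 and ITGA6 were not tested with a filter of 5 TPM. Depth limits ITGA4 in GSCs and ITGA6 in Diff cells.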

Other observations

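The integrin subunit genes that were too low to be tested are given here as values without a test. Of the 16 other subunit genes, 8 had a mean of 1 TPM or less. ITGAL, the αL subunit of lymphocytes, had 1.65, 1.66 and 1.47 TPM in GSCs and stayed under 1 TPM in every U87 and Diff library (0.512 to 0.942 TPM). ITGA9, a receptor chain for tenascin-C and osteopontin, had 1.21, 1.08 and 1.41 TPM in GSCs and no more than 0.645 TPM elsewhere. Both were thus higher in the GSC libraries than in any other.

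ITGB2 showed the reverse, with its highest levels in Diff cells as given above, on about 89 to 128 fragments per library against 2 to 13 in the other lines. ITGB7 was highest in U87, at 0.746, 0.842 and 0.398 TPM, but reached 0.548 TPM in Diff replicate 1, so the lines overlapped. ITGAM did not exceed 0.408 TPM, ITGA2B 0.292 TPM, ITGB6 0.144 TPM and ITGA8 0.0397 TPM in any library. ITGB6 is the fifth β partner of αv, and β6 is known mainly from epithelia.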
